A study of Saccharomyces cerevisiae with 2 samples.

Results

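Budding yeast (Saccharomyces cerevisiae) exposed to 0.7 M NaCl for 60 min was compared with unstressed cells on 1 array with 2 colours. Every feature of that array was taken, and features listed at exactly 0 were set aside, which left 6793 of 6868. The salt-treated cells and the unstressed cells were both of the wild-type strain BY4742, haploid and of mating type alpha, and carry the genotype note his3kan. They grew at 30 °C with shaking in synthetic complete medium, and pre-warmed NaCl in that medium was added to the treated culture. On the array the cDNA of salt-treated cells carried the dye Oyster 550 and that of unstressed cells carried Oyster 650. The only other array of the series compared the same strain after 30 min in the same salt with unstressed cells, with the dyes the same way round. HIS3, the locus in the genotype note, is listed at 0 at 60 min and had 0.22 at 30 min. Both channels come from cells of that genotype, so its ratio does not check the label.

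As background, a rise in external salt draws water out of a yeast cell and lets sodium in. The high-osmolarity glycerol (HOG) pathway, a mitogen-activated protein kinase cascade fed by the Sln1 and Sho1 branches, then drives synthesis and retention of glycerol as an osmolyte. In parallel, the transcription factors Msn2 and Msn4 act on a broad set of stress genes, while genes for ribosome production are turned down. Much of this programme is known to be transient, so that cells at a later time are at another stage of adaptation than cells soon after the shock.

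Each value below is a log2 ratio from the authors' deposited table, taken as salt-treated over unstressed cells. That direction is likely and not stated by the submitters, whose titles name the unstressed cells first. It was taken because all 12 members of a list of textbook salt and stress reporters had positive values at 60 min, from 0.34 for ENA1 to 6.53 for GRE1, while all 137 cytosolic ribosomal protein genes had negative values. "Higher" and "lower" follow it, and both would swap if the ratio ran the other way. The log base was assumed to be 2. The direction of the reporters and of the ribosomal protein genes is therefore no result of its own. Reporters described below include GRE1, SIP18, STL1, ALD3, HXT5, CTT1, HSP12, GPP2, GPD1, GRE2 and ENA1. With 1 array, no replicate and no dye swap, there is no error across cultures and no test. The number of arrays limits the precision, and neither dye and treatment nor salt and time in culture can be told apart. A feature is described as higher or lower when it was at least 2-fold from 0, that is, past 1 or -1 on the log2 scale. Less RNA per cell and fewer cells with a transcript cannot be told apart in such bulk samples.

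After 60 min most features lay close to 0, and the distribution had a long tail on the high side. At least 2-fold higher were 458 (6.74%) of the 6793 features, while 297 (4.37%) lay at least 2-fold lower, which makes 11.1% in either direction. Counts of list members below are to be read beside these shares. The values ran from -3.69 to 6.53, with a median of -0.00, an interquartile range from -0.32 to 0.31 and an SD over features of 0.71. The asymmetry lay in the tails. At least 4-fold from 0 were 105 features on the high side and 14 on the low side, and at least 8-fold were 45 and 1. The 1 feature on the low side was SAM1. On the 30 min array the SD was 1.34. When the 60 min values were multiplied to reach that SD, 1078 features were higher and 1093 lower, so that 49.7% of the features past 2-fold were higher, against 60.7% on the deposited scale. Nearest to the threshold, GAL1 (1.002) lay just inside and HXT4 (0.999) just outside on the high side, and GFD2 (-1.0) and MSL5 (-0.99) did so on the low side.

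**Figure D1:**
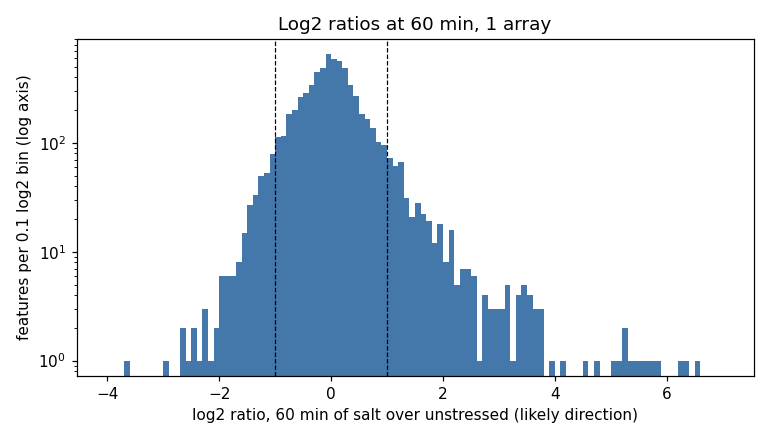
Histogram of the deposited log2 ratios at 60 min for the 6793 features not listed at 0, with the number of features per bin on a log axis and dashed lines at 2-fold. Values run from -3.69 to 6.53, with 105 features past 4-fold on the high side and 14 on the low side.

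The highest ratios at 60 min belonged to small hydrophilic stress proteins, a glycerol importer and side branches of sugar metabolism. GRE1 (YPL223C), a hydrophilin, led with 6.53, or 92.6-fold. Its relative SIP18 (YMR175W) had 6.39, or 83.9-fold. STL1 (YDR536W), which imports glycerol together with protons, had 6.29, or 78.4-fold, and was the highest feature of the 30 min array with 8.32. NQM1 (5.85) encodes a transaldolase and TKL2 (5.61) a transketolase, and GND2 (5.11) encodes a 6-phosphogluconate dehydrogenase, so that enzymes of the pentose phosphate pathway held several of the first places. SPS100 (5.75) is a spore wall gene. The aldehyde dehydrogenase genes ALD3 and ALD2 had 5.42 and 4.72, and the hexose transporter gene HXT5 had 5.03. HBT1 (5.26), RTN2 (4.16, a reticulon of the endoplasmic reticulum) and FMP16 (4.50) followed. Without a known role given here, YCL048W-A had 5.33 and CPP3 had 5.20.

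Below these stood genes of protein folding, peroxide removal, the cell wall and amino acid breakdown. The cytosolic catalase gene CTT1 had 3.96, or 15.6-fold. HSP26, a small heat shock protein, had 3.77 and HSP12, a membrane-stabilising hydrophilin, had 3.68. ARO10 (3.70) encodes a decarboxylase and ARO9 (2.64) an aminotransferase of aromatic amino acid breakdown, and PUT4 (3.09) is the proline permease. PIR3 (3.62) is a covalently bound cell wall protein, and GAC1 (3.59) targets a phosphatase to glycogen synthase. ERR1, ERR2 and ERR3, enolase-related genes that are near-identical copies, had 3.57, 3.45 and 3.39, so the 3 values may come from shared signal. All 8 members of the list of hydrophilins and small membrane stress proteins were higher, with a median of 3.12 against -0.00 over all features. Of these 8 genes, 4 belong to the reporters used to set the direction, among them GRE1, SIP18 and HSP12. The remaining 4 had a median of 1.82, from 1.23 for HOR7 and 1.24 for STF2 to 2.40 for YGP1 and 3.13 for SPI1.

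At the low end stood sulphur amino acid metabolism, with SAM1 at -3.69 (12.9-fold lower), SAM2 at -2.67, CYS3 at -2.57, SAM3 at -2.28, MMP1 at -2.06 and MET17 at -1.97 among the 25 lowest features. AAH1, adenine deaminase, had -2.99. YHB1, the flavohaemoglobin that removes nitric oxide, had -2.48. ZEO1 had -2.46, the pheromone gene MF(ALPHA)2 had -2.37 and ILV6, the regulatory subunit of acetolactate synthase, had -2.11. SRP40, a nucleolar protein, had -1.97, RPP0, the stalk protein of the large ribosomal subunit, had -1.92, and UTR2, a cell wall transglycosylase, had -1.85. YLR179C, the reading frame next to SAM1 (YLR180W) by systematic number, had -1.81. Further down were DLD3 (-1.83), HMS2 (-1.78), the low-affinity iron transporter gene FET4 (-1.73) and ARE1 (-1.70), a sterol acyltransferase.

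**Figure D2:**
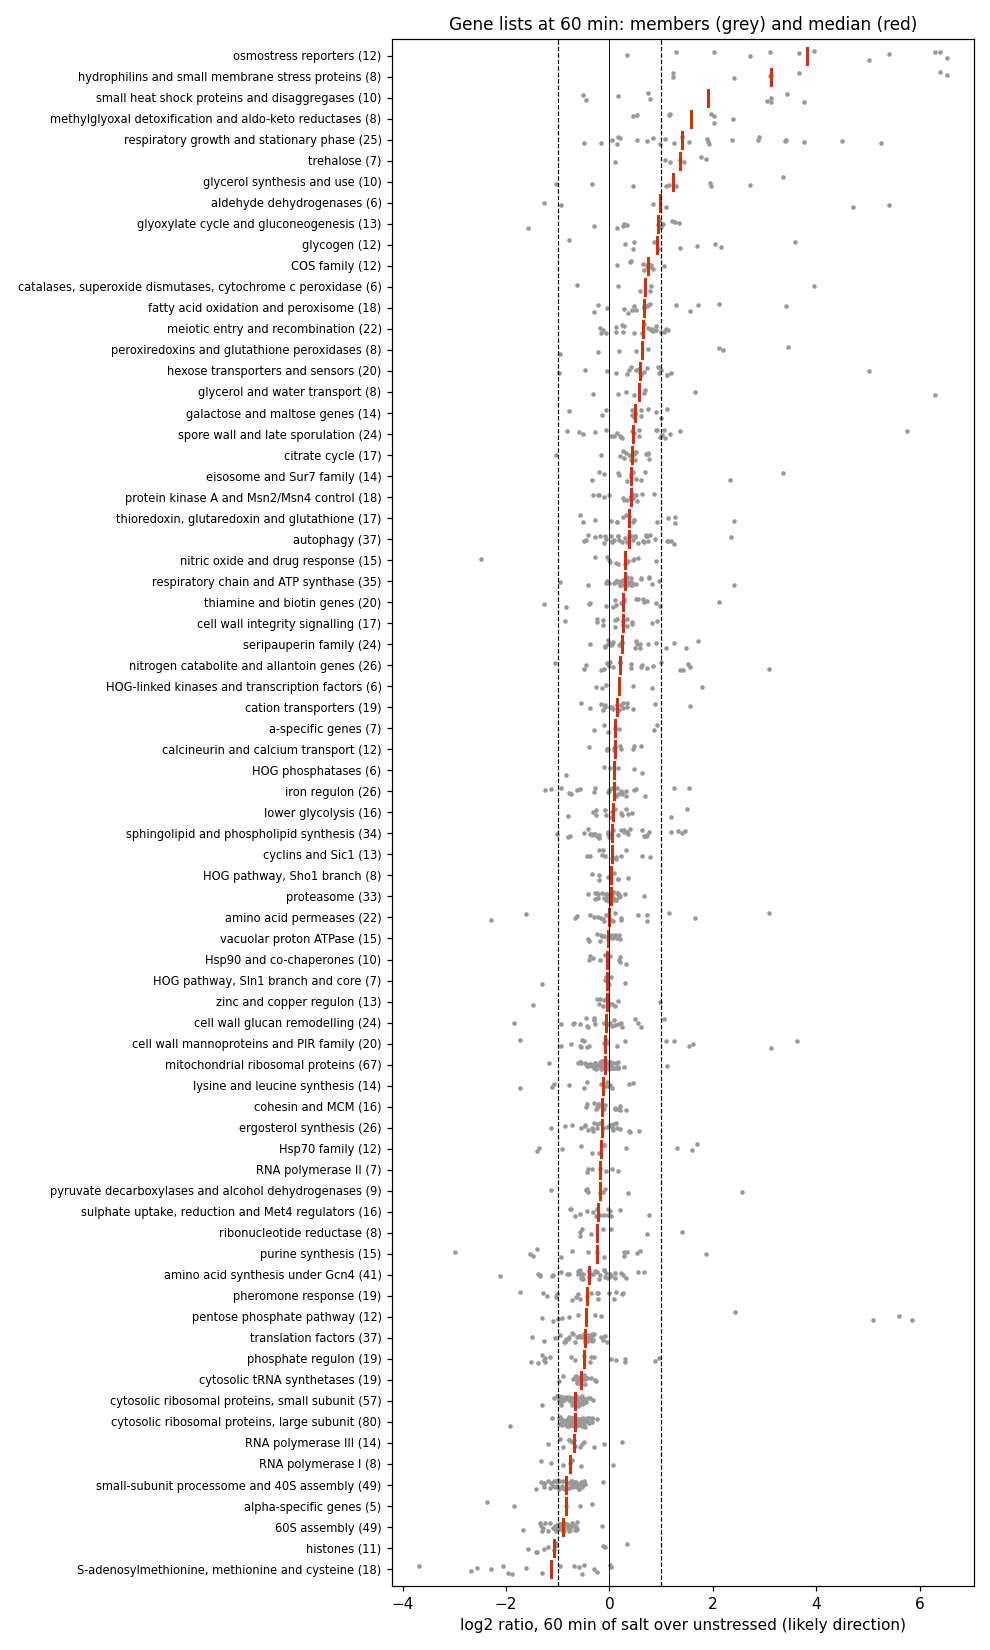
Log2 ratios at 60 min of the members (grey points) and the median (red bars) of each gene list with at least 5 measured members, with the number of members in brackets, dashed lines at 2-fold and vertical scatter for legibility. Medians run from -1.13 for S-adenosylmethionine, methionine and cysteine to 3.82 for the reporters, and most lists lie within 2-fold.

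Genes of glycerol synthesis and use were mostly higher at 60 min, and unevenly along the route. Of 10 genes of glycerol synthesis and use, 7 were higher and 1 was lower (median 1.22), where 6.74% and 4.37% of all features were. GPP2, the inducible glycerol-3-phosphatase, had 2.72 and its paralog GPP1 had 0.46. GPD1, the osmotically controlled glycerol-3-phosphate dehydrogenase, had 1.29 at 60 min and 3.87 at 30 min. Its redox-controlled paralog GPD2 had -1.03. The dihydroxyacetone kinase genes DAK1 and DAK2 had 3.37 and 1.95 and the glycerol dehydrogenase gene GCY1 had 1.97, so that the genes of the dihydroxyacetone route had larger ratios than GPD1. DAK2 had the larger ratio at 60 min, with 1.31 at 30 min. GUT2, the mitochondrial glycerol-3-phosphate dehydrogenase, had 1.09, and the glycerol kinase gene GUT1 had -0.33. Without the 2 reporters GPD1 and GPP2, 5 of 8 genes were higher and 1 lower (median 1.12). Of the GPD and GPP genes, which make glycerol, only these 2 reporters were higher. In transport, 2 of 8 genes were higher (median 0.57), and without the reporter STL1 1 of 7 (median 0.47). STL1 had 6.29 and the water channel gene AQY1 had 1.66, while FPS1, the glycerol channel that closes under high osmolarity, had -0.31, and its regulators RGC1 and ASK10 had 0.17 and 0.47.

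Of 27 HOG signalling genes, 1 was higher (3.7%, against 6.74% of all features) and 1 lower (3.7%, against 4.37%), and the median of -0.00 was that of all features too. The kinase gene HOG1 had -0.00, its activator PBS2 had -0.07 and the sensor gene SLN1 had 0.03. SSK22, a kinase of the Sln1 branch, was the lower one with -1.31, against 0.30 for its paralog SSK2. RCK1, a kinase related to the Hog1 substrate RCK2, was the higher one with 1.80, against 0.46 for RCK2. SHO1, the sensor of the other branch, had -0.20 at 60 min and -1.76 at 30 min. The phosphatase genes PTP3 and PTP2 had 0.62 and 0.48, and PTC2 had -0.84. All 18 genes of protein kinase A and Msn2/Msn4 control were within 2-fold (median 0.41), with RAS2 the lowest at -0.31.

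Among 19 cation transporter genes 1 was higher and none lower (median 0.14), a share of 5.26% beside 6.74% of all features. The higher one was PMA2, the minor copy of the plasma membrane proton pump, with 1.56, against -0.55 for the major copy PMA1. The sodium pump genes ENA1, ENA2 and ENA5 had 0.34, 0.27 and 0.19, where the 30 min values were 2.23, 2.13 and 2.13. They are near-identical copies, so the 3 values are not independent. HAL1, a gene of salt tolerance, had 0.88. None of 12 calcineurin and calcium genes passed 2-fold (median 0.10). The calcineurin regulator RCN2 had 0.45 at 60 min and 2.55 at 30 min, and the vacuolar calcium pump gene PMC1 had 0.60 and 1.66. The 15 genes of the vacuolar proton ATPase lay between -0.41 for VMA9 and 0.21 for VMA6, with a median of -0.02.

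Genes of carbohydrate reserves were higher in part. Of 7 trehalose genes 6 were higher (median 1.37), and these 6 include both synthesis and breakdown. TPS2, trehalose-phosphate phosphatase, had 1.86, TSL1 and TPS1 of the synthase complex had 1.76 and 1.37, and the trehalase genes ATH1, NTH1 and NTH2 had 1.44, 1.18 and 1.07. TPS3 was the exception with 0.10. In glycogen metabolism 5 of 12 were higher (median 0.92). GAC1 and GIP2, regulators of the phosphatase that acts on glycogen synthase, had 3.59 and 2.16, the debranching enzyme gene GDB1 had 2.04, phosphorylase gene GPH1 had 1.69 and SGA1 had 1.38. The glycogen synthase genes themselves did not pass 2-fold: GSY2 had 0.47 and GSY1 had -0.77, where both had over 2 at 30 min (2.55 and 2.75). PGM2, phosphoglucomutase, had 1.56 and UGP1, which makes UDP-glucose, had 1.22.

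A set of 33 pairs of paralogs or isoenzymes is described next. The pairs were chosen with results of these data known, so their counts describe that choice. Of them, 25 differed by at least 2-fold between the members, and in 5 pairs 1 gene was at least 2-fold higher while its partner was at least 2-fold lower. These 5 were GPD1 and GPD2 (1.29 and -1.03), GND2 and GND1 (5.11 and -1.31), PGM2 and PGM1 (1.56 and -1.66), HXK1 and HXK2 (1.23 and -1.32), and PDC6 and PDC1 (2.57 and -1.13). In the pentose phosphate pathway the widest gap was between TKL2 (5.61) and TKL1 (-0.91), a difference of 6.52. NQM1 (5.85) stood against TAL1 (-0.17), and SOL4 (2.42), a 6-phosphogluconolactonase, against SOL3 (-0.78). The pathway's entry enzyme, ZWF1, had -0.28, and RKI1 and RPE1, which interconvert pentose phosphates, had -1.10 and -1.0. Its list of 12 genes thus held 4 higher and 3 lower ones, and its median of -0.44 and mean of 1.07 differ in sign. Pairs with nearly equal values were NTH2 and NTH1 (1.07 and 1.18) and the glutaredoxin genes GRX2 and GRX1 (1.14 and 1.26).

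**Figure D3:**
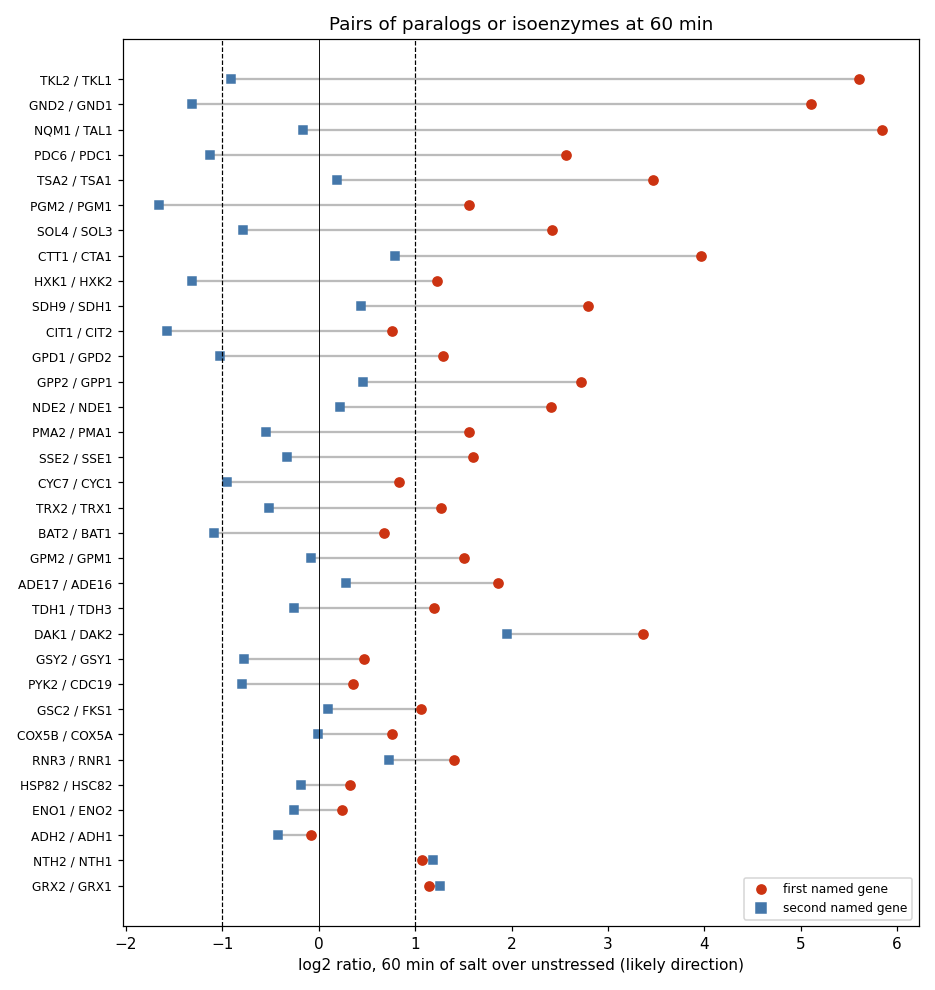
Log2 ratios at 60 min of 33 pairs of paralogs or isoenzymes, sorted by the difference between the first named gene (circles) and the second (squares), with dashed lines at 2-fold. The widest gaps are those of TKL2 and TKL1, GND2 and GND1, and NQM1 and TAL1, and 8 pairs lie within 2-fold of each other.

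Most genes of central carbon metabolism outside these branches were near 0, and the lists of respiration and fatty acid oxidation had positive medians. Of 16 genes of lower glycolysis 2 were higher (12.5%, against 6.74% of all features), GPM2 (1.5) and TDH1 (1.19), and the median was 0.08. The pyruvate kinase gene CDC19 was the lowest with -0.80. Glucokinase (GLK1) had 1.60, while EMI2, its paralog, had -0.72. Besides HXT5, the hexose transporter genes HXT6, HXT7 and HXT1 were higher with 1.20, 1.12 and 1.11, 4 of 20 in all (median 0.60), and HXT6 and HXT7 are near-identical. Without the reporter HXT5 these were 3 of 19 (median 0.59). HXT2 had the lowest value of the list, -0.98. No citrate cycle gene was higher (median 0.44 over 17). Of 35 genes of the respiratory chain and ATP synthase, 30 had positive values but only NDE2, an external NADH dehydrogenase, passed 2-fold, with 2.40 (median 0.31). CYC1, the main cytochrome c, had -0.96 at 60 min and -2.97 at 30 min.

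In the glyoxylate cycle and gluconeogenesis 4 of 13 genes were higher and 1 was lower (median 0.95). MLS1, malate synthase, had 1.35, the activator gene CAT8 had 1.26 and ACS1, acetyl-CoA synthetase, had 1.22. CIT2, the peroxisomal citrate synthase, was lower with -1.57, while the mitochondrial CIT1 had 0.76. Fatty acid oxidation and peroxisome genes held 5 of 18 higher members (median 0.67). These were POT1 (3.41, thiolase), POX1 (2.11, acyl-CoA oxidase), FOX2 (1.72, the multifunctional enzyme), CRC1 (1.55) and CAT2 (1.29) of carnitine transport, so that the 3 core enzymes of beta-oxidation were all among them. The list of respiratory growth and stationary phase genes had 15 of 25 higher and none lower (median 1.41), with HBT1 (5.26), FMP16 (4.50) and HSP26 (3.77) at the top and MSC1 (3.42) and RTC3 (3.40) after them. ICY2, listed as ATG41, was its lowest member with -0.49.

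A list of 10 genes of small heat shock proteins, disaggregases and the HSP31 family held 5 higher ones (median 1.91). HSP31, of the DJ-1 family, had 3.43, and its relatives SNO4, HSP32 and HSP33, which are near-identical to each other, had 3.13, 3.12 and 3.05. These 4 related genes may share signal, are neither small heat shock proteins nor disaggregases, and carry most of the count and the median. Of the other 6, HSP26 was higher with 3.77, while HSP78 had 0.16 and BTN2 had -0.46. The disaggregase HSP104 had 0.75 and the small heat shock protein gene HSP42 had 0.78, where the 30 min values were 2.76 and 3.81. HSP30 had -0.51 at 60 min and 1.89 at 30 min. In the Hsp70 family 3 of 12 were higher and 2 lower. The inducible members SSA4 (1.70) and SSA3 (1.30) and the exchange factor gene SSE2 (1.60) were the higher ones. SSB1 and SSB2, which fold nascent chains on the ribosome and are close copies, were the lower ones with -1.36 and -1.40. None of 10 genes of Hsp90 and its co-chaperones passed 2-fold, with HSP82 at 0.33 and STI1 at -0.39. All 33 proteasome genes were within 2-fold (median 0.03). Of 37 autophagy genes 5 were higher (13.5%, against 6.74% of all features), with a median of 0.37. They were led by ATG39 (2.35), a receptor for autophagy of the nucleus.

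Redox genes were higher in a few members. Among 8 peroxiredoxins and glutathione peroxidases TSA2 had 3.46, GPX1 had 2.19 and PRX1, the mitochondrial peroxiredoxin, had 2.13. The major cytosolic peroxiredoxin TSA1 had 0.19 and AHP1 had -0.95. Of 17 thioredoxin, glutaredoxin and glutathione genes 4 were higher (23.5%, against 6.74% of all features), with a median of 0.38. The 4 were the glutathione transferase gene GTT1 (2.40), TRX2 (1.27), GRX1 (1.26) and GRX2 (1.14). TRX2 had the larger value at 60 min, with 0.71 at 30 min. Superoxide dismutase genes SOD2 and SOD1 had 0.80 and 0.59. Methylglyoxal detoxification and aldo-keto reductases had 6 of 8 higher and none lower (median 1.57), among them the aldose reductase gene GRE3 (2.40) and the glyoxalase gene GLO1 (2.03). Without the reporter GRE2, 5 of 7 were higher and the median was 1.17.

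Genes of ribosome production had negative values throughout, and most of them lay within 2-fold. The sign of the ribosomal protein genes was used to set the direction and is no result of its own. All 137 cytosolic ribosomal protein genes had negative values, from -1.92 for RPP0 to -0.24 for RPL22B (median -0.67, interquartile range -0.80 to -0.53), and 5 passed 2-fold. The 5 were RPP0, RPS21B (-1.31), RPL38 (-1.11), RPS26A (-1.08) and ASC1 (-1.02). Many of these genes are near-identical pairs, and over 56 pairs the A and B copies differed by a median of 0.15. RPS21 showed the widest gap, with -0.52 for the A copy and -1.31 for the B copy. All 98 assembly genes were negative too, with 32 past 2-fold (median -0.89). DBP2, an RNA helicase, had -1.68, NOP1, the methylase of box C/D particles, had -1.41, RRS1 had -1.34 and NSR1 had -1.33. TIF6 (-0.14) and UTP22 (-0.12) were nearest to 0. The 30 min medians of these groups were -2.28 and -3.37. With the 60 min values scaled to the SD of the 30 min array, the medians of both ribosomal protein lists and both assembly lists lay past 2-fold.

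The polymerases and factors that serve ribosomes and tRNAs had the same sign. RNA polymerase I had a median of -0.76, with RPA14 (-1.31) and RPA43 (-1.12) past 2-fold, while its initiation factor gene RRN3 had 0.07. RNA polymerase III had a median of -0.68, with RPC31 at -1.20 and the repressor gene MAF1 at 0.23. RNA polymerase II subunits had a median of -0.18 and none past 2-fold. All 37 translation factor genes were negative and 3 were lower (8.11%, against 4.37% of all features). The 3 were TEF4 (-1.49), YEF3 (-1.27) and TEF2 (-1.05), which act in elongation. All 19 cytosolic tRNA synthetase genes were negative and within 2-fold (median -0.54), from -0.97 for KRS1 to -0.27 for SES1. The list of mitochondrial ribosomal protein genes had a median of -0.09, and MRPL4 was lower with -1.16. MRP8 (1.12) was its only higher entry, and despite its symbol it is not an established protein of that ribosome.

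Non-coding features had their own pattern. Of 126 nuclear tRNA features measured, 36 were at least 2-fold lower and 3 higher (median -0.79), where 4.37% and 6.74% of all features were. Among amino acids with at least 3 tRNA features, arginine had the lowest median (-1.40), with tR(CCG)L at -1.92 as the lowest tRNA feature of all. Histidine (-1.37) and asparagine (-1.18) followed, and glutamate (-0.29) and glycine (-0.41) were nearest to 0. tRNA features of 1 anticodon are close copies, so their values are not independent. Of the higher ones, tD(GUC)J4 had 1.21, tR(CCU)J had 1.14 and tL(UAG)J had 1.13. The 70 small nucleolar and nuclear RNA features had 8 lower ones and a median of -0.43, with snR81 (-1.25), snR67 (-1.23) and snR71 (-1.18) the lowest and snR4 (0.43) the highest. The 6 5S ribosomal RNA features lay between -1.09 and -0.41.

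Mitochondrially encoded features lay on the other side. Of 36 measured, 34 had positive values, 9 were at least 2-fold higher and none was lower (median 0.64, and 0.16 at 30 min). ATP8 and ATP6, subunits of the ATP synthase, had 1.15 and 0.94. VAR1, the mitochondrial ribosomal protein encoded in the organelle, had 1.05. COX1, COX2 and COX3 of cytochrome oxidase had 0.56, 0.68 and 0.55, and COB, cytochrome b, had 0.64. The ribosomal RNA features 15S_rRNA and 21S_rRNA had 0.64 and 0.41. Introns of COX1 that encode proteins lay higher than COX1 itself, with AI5_ALPHA and AI2 at 1.14 each and AI1 at 1.08. These features overlap or adjoin within the same transcripts and are not independent.

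Reading frames without a gene symbol leaned upwards. Of 602 frames absent from the reference gene table, 83 (13.8%) were higher and 16 (2.66%) lower, with a median of 0.30. Of 689 frames in the table without a symbol, 87 (12.6%) were higher and 29 lower (median 0.12). Of 5245 frames with a symbol, 275 (5.24%) were higher and 207 lower (median -0.02). Some of the absent frames adjoin a gene with a high ratio: YBR116C (5.52) is next to TKL2 (5.61), YML099W-A (2.45) to TSL1 (1.76) and YLR311C (2.05) to ATG39 (2.35). Of the 83 higher absent frames, 24.1% had a table gene at least 2-fold higher at the same or the adjoining systematic number, against 14.4% of the 500 absent frames within 2-fold that have such a neighbour to compare. On the low side YJR071W (-2.64) adjoins LIA1 (-1.43) and NPA3 (-0.72). Other frames had no such neighbour, as YLR184W (-1.94) lies between TOS4 and RPL37A, neither of which passed 2-fold, and YDL050C (1.87) lies between KNH1 and LHP1, likewise within 2-fold. Frames that overlap a gene on the other strand cannot be told apart from it, since the strand of the probes is not given.

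**Figure D4:**
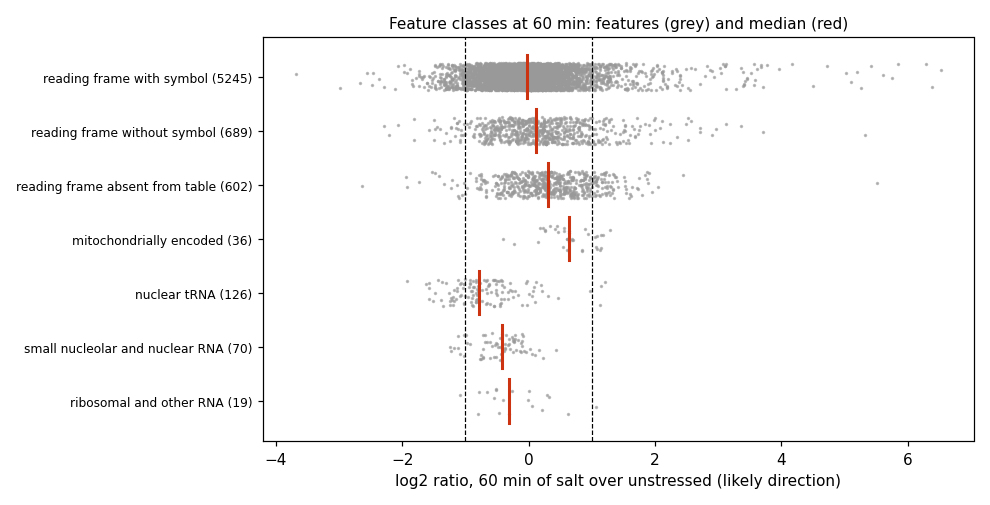
Log2 ratios at 60 min by class of feature (grey points, with vertical scatter for legibility) and the class median (red bars), with the number measured in brackets and dashed lines at 2-fold. Nuclear tRNA features have a median of -0.79, mitochondrially encoded features 0.64 and frames absent from the gene table have one of 0.30.

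Neighbouring genes in the table shared direction more often than genes at large. Of 362 protein-coding genes that were higher, 23.2% had an immediate neighbour in the R64 gene order that was also higher, where this holds for 11.6% of all 5935 genes placed. Of 236 lower genes, 14.4% had a lower neighbour, against 7.85% of all. Adjacent pairs at the top include ALD3 and ALD2 (5.42 and 4.72, YMR169C and YMR170C) and YNL194C and YNL195C (3.36 and 3.13). Pairs of this kind include duplicates next to each other and genes on either side of 1 intergenic region, and no test was made of the difference.

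Sulphur amino acid metabolism held the lowest list median of all lists, -1.13 over 18 genes of S-adenosylmethionine, methionine and cysteine, with 9 lower and none higher. SAM1 and SAM2 encode S-adenosylmethionine synthetases, which turn methionine into the main methyl donor. They had -3.69 and -2.67 at 60 min, against -1.98 and -1.65 at 30 min, and as near-identical copies they may share signal. Uptake genes were also low. SAM3, the S-adenosylmethionine permease, had -2.28, MMP1, the S-methylmethionine permease, had -2.06, and MUP1, the high-affinity methionine permease, had -1.61. In synthesis, CYS3 (cystathionine gamma-lyase) had -2.57, MET17 (homocysteine synthase) -1.97, MET6 (methionine synthase) -1.88 and SAH1 (S-adenosylhomocysteine hydrolase) -1.31. CYS4, which acts just before CYS3, had -0.59. MET13 had -0.96 at 60 min and 0.71 at 30 min.

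The branch that reduces sulphate did not share this size. None of 16 genes of sulphate uptake, reduction and Met4 control passed 2-fold (median -0.22). MET3 and MET14, which activate sulphate, had -0.11 and -0.57, MET16 had -0.25, and MET10 and MET5, the subunits of sulphite reductase, had -0.74 and -0.03. The regulators MET4 and MET28 had -0.19 and -0.04, and the sulphate permease gene SUL1 had 0.77. The values past 2-fold thus lay in the list of S-adenosylmethionine, methionine and cysteine, and not in that of sulphate uptake and reduction. The former list also holds CYS3 and MET17, so the split depends on the list in which a gene was put. The difference between the lists was not tested.

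**Figure D5:**
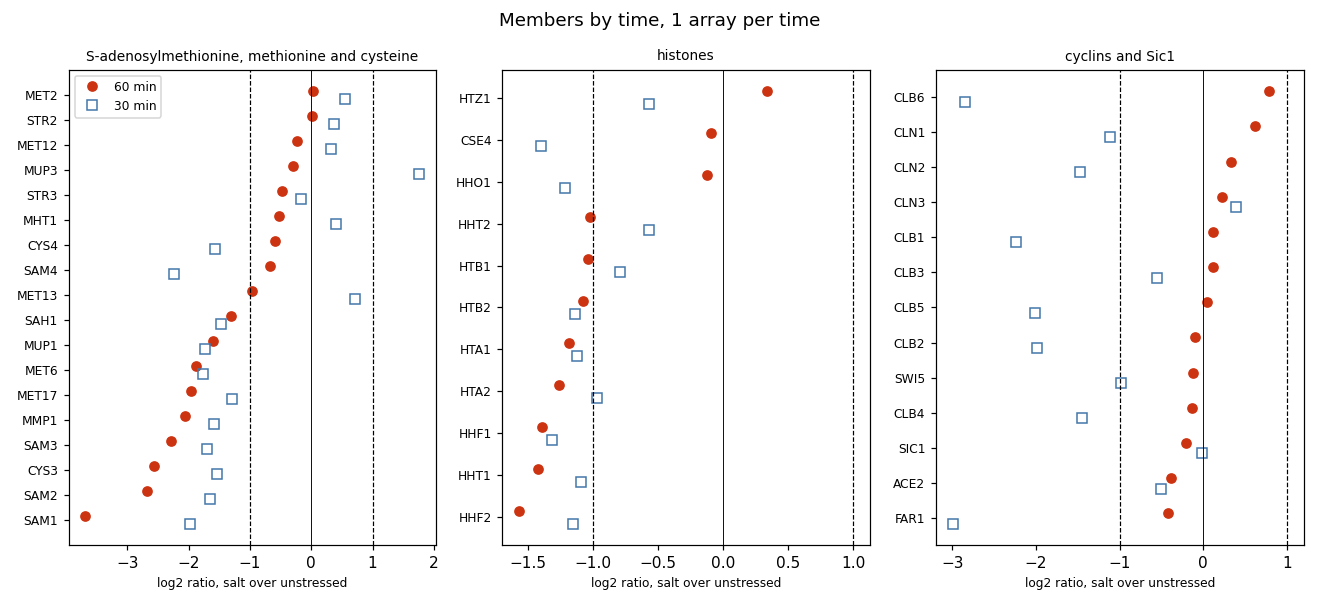
Log2 ratios of salt-treated over unstressed cells at 60 min (filled circles) and 30 min (open squares) for the members of 3 lists, with dashed lines at 2-fold and 1 array per time. SAM1 has -3.69 at 60 min and -1.98 at 30 min, the histone list has a median of -1.08 at 60 min and -1.13 at 30 min, and CLB6 has 0.78 at 60 min and -2.84 at 30 min.

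Of 41 genes of amino acid synthesis 6 were lower and none higher (median -0.39). ILV6, ILV3 and ILV2 of the valine and isoleucine route had -2.11, -1.38 and -1.35, and the mitochondrial aminotransferase gene BAT1 had -1.08, while the cytosolic BAT2 had 0.68. The other 2 were GDH1, the main glutamate dehydrogenase, with -1.34, and THR1, homoserine kinase, with -1.11. LEU1, isopropylmalate isomerase, had -1.74, LYS4 had -1.11 and LEU9 had -1.07, the 3 lower ones of 14 lysine and leucine genes, while LEU4 had -0.17 and LEU3 had 0.04. The 14 include LEU2 and LYS2, marker loci of this strain, whose ratios may not reflect expression of those genes. Other members of the synthesis list lay above 0, as HIS4 with 0.33 and ARG3 with 0.12. In nitrogen use, 6 of 26 genes were higher and 1 lower (23.1% and 3.85%, against 6.74% and 4.37% of all features). Proline uptake and breakdown were among them, with PUT4 at 3.09, PUT1 (proline oxidase) at 1.57 and PUT2 at 1.01. UGA1 and UGA2, which break down gamma-aminobutyrate, had 1.52 and 1.36, and CAR2, ornithine transaminase, was the lower one with -1.05.

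In purine synthesis 4 of 15 genes were lower and 1 higher (26.7% and 6.67%, against 4.37% and 6.74% of all features), with a median of -0.24. The lower ones were AAH1 (-2.99) and the guanine branch, with IMD4 at -1.54, GUA1 at -1.48 and IMD2 at -1.40. ADE17 was the higher one with 1.86, and ADE12 and ADE13, which lead to AMP, had 0.58 and 0.53. The IMD genes are close copies, so their values are not independent.

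Core histone genes were lower, and most other cell cycle genes were near 0. Of 11 histone genes 8 were lower (median -1.08), and these 8 are the paired core histone genes: HHF2 (-1.57) and HHF1 (-1.39) for H4, HHT1 (-1.42) and HHT2 (-1.02) for H3, HTA2 (-1.26) and HTA1 (-1.19) for H2A, and HTB2 (-1.08) and HTB1 (-1.04) for H2B. The copies are near-identical, so the 8 values stand for fewer independent ones. The variants HTZ1 (0.34), CSE4 (-0.09) and the linker histone HHO1 (-0.12) were not lower. None of 13 cyclin and cell cycle regulator genes passed 2-fold at 60 min (median 0.05, and -1.45 at 30 min). CLB6, an S-phase cyclin, had the highest value with 0.78, CLN1 and CLN2, the G1 cyclins, had 0.62 and 0.33, and FAR1, the pheromone-induced inhibitor, had the lowest with -0.43. RNR1, which encodes the main catalytic subunit for making deoxynucleotides, had 0.73, and its inducible paralog RNR3 had 1.40. Among 16 cohesin and replicative helicase genes none passed 2-fold, from -0.45 for MCM3 to 0.32 for PDS5.

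Cell wall genes had members past 2-fold on both sides. Of 20 mannoprotein genes 6 were higher and 1 lower (30.0% and 5.0%, against 6.74% and 4.37% of all features). The low side was thus near the share of all features. PIR3 had 3.62, SPI1 3.13, CWP1 1.62, FIT1 1.54, FIT2 1.25 and SED1 1.09, while the cold-shock mannoprotein gene TIR1 had -1.73. In glucan remodelling GSC2, the stress-linked glucan synthase subunit, had 1.06 and UTR2 had -1.85, and the other 22 of 24 genes were within 2-fold. That is 4.17% each way, no more than the shares of all features. None of 17 genes of the cell wall integrity pathway passed 2-fold, with its kinase gene SLT2 the highest at 0.91. Of 14 eisosome and Sur7 family genes, YNL194C (3.36) and FMP45 (2.33) were higher, while the core scaffold genes PIL1 and LSP1 had 0.42 and 0.61. In lipid synthesis 4 of 34 genes were higher and 1 lower (11.8% and 2.94%, against 6.74% and 4.37% of all features). OLE1, the fatty acid desaturase, had 1.46, INO1, which makes inositol phosphate, 1.41, the ceramidase gene YPC1 1.33 and SUR1 1.18, and LCB1 had -1.01. Of 26 ergosterol genes ECM22, a regulator, was lower with -1.14, and the others were within 2-fold. This share of 3.85% is no more than the 4.37% of all features.

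The alpha-specific genes all had negative values (median -0.85), with MF(ALPHA)2 (-2.37) and the agglutinin gene SAG1 (-1.84) past 2-fold, MF(ALPHA)1 at -0.85 and the receptor gene STE3 at -0.34. None of 7 a-specific genes passed 2-fold, between -0.30 for STE2 and 0.92 for AGA2. A ratio does not give a level, so the values do not show which of these genes the cells used. HMRA1, a silent a-type copy, is listed at 0. Of 19 pheromone response genes 5 were lower and none higher, namely PRM1 (-1.74), AGA1 (-1.29), FUS3 (-1.21), FUS1 (-1.03) and DIG1 (-1.02). Genes of meiotic entry and recombination had 3 of 22 higher (13.6%, against 6.74% of all features), with a median of 0.64. These were REC8 (1.14), SPO13 (1.09) and REC102 (1.06), while IME1, the inducer of meiosis, had -0.16. On a list of 24 spore wall and late sporulation genes, which does not include GAS2, 6 were higher, with SPS100 at 5.75 and SGA1 next at 1.38.

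Of 19 phosphate genes 7 were lower and none higher (median -0.48). The acid phosphatase genes PHO12, PHO3, PHO11 and PHO5 had -1.39, -1.27, -1.25 and -1.15, PHM6 had -1.51, SPL2, an inhibitor of low-affinity uptake, had -1.30 and the activator gene PHO4 itself had -1.24, while the high-affinity transporter gene PHO84 had -0.67. PHO5, PHO11 and PHO12 are close copies. In iron uptake 2 of 26 genes were higher and 2 lower, 7.69% each way, near the 6.74% and 4.37% of all features. FIT1 and FIT2 had 1.54 and 1.25, against -0.94 for their relative FIT3. The reductase gene FRE1 had -1.25 and the permease gene FTR1 had -1.14, and the copper transporter gene CTR1 had -1.48. Of 24 members of the subtelomeric seripauperin family 4 were higher (16.7%, against 6.74% of all features), led by PAU21 (1.71). All 12 genes with a COS symbol were positive, with a median of 0.74. The highest, COS111 (1.06), was the only higher entry and shares the symbol but not the family. Apart from COS111, both families consist of close copies that may share signal.

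Some genes passed 2-fold at 60 min without having done so at 30 min. Of 4506 features within 2-fold at 30 min, 94 were higher and 50 lower at 60 min. These are smaller shares than the 458 and 297 of all 6793 features. Of the 94 and 50, 28 and 25 have a gene symbol. NCA3 (YJL116C), of the SUN family of cell wall proteins, had 3.53 at 60 min (11.5-fold) and 0.05 at 30 min, the highest 60 min value among them by more than 1 log2 unit. Its relative UTH1 had -1.53 and -1.61. The next with a symbol were NFG1 with 2.12 and 0.60, the spore wall glucanosyltransferase gene GAS2 with 1.84 and 0.59, PUT1 with 1.57 and 0.45, OLE1 with 1.46 and -1.0 and the cell wall gene PST1 with 1.46 and 0.66. On the low side PGM1 had -1.66 and -0.78, LCL1 -1.53 and -0.86, DSK2 -1.43 and -0.74, GDH1 -1.34 and -0.73, HXK2 -1.32 and -0.94, SPL2 -1.30 and -0.22, and MIG3 -1.20 and -0.36. HXK2 and LCL1 were thus already near the threshold at 30 min. The lowest 6 of the 50 lower features have no symbol, with YJR071W at -2.64 and -0.10 and YDL159W-A at -2.29 and 0.87. Whether 1 unstressed culture served both arrays is not stated in the labels, and there is 1 array per time, so none of these differences has an error.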

How the data were processed

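RNA was compared on 2-colour NimbleGen tiling arrays of yeast, 1 array per time. Per the labels, RNA was extracted with hot phenol, and dyes were coupled to amino-allyl cDNA. The authors deposited 1 value per feature and array, read here as log2 ratios. Their medians are about 0, so they appear centred. The sources used here do not state the log base, direction, background correction, normalization or merging of probes. Base 2 was assumed. No intensities were used here. Of 6868 features, 6079 matched the reference gene table (assembly R64) by locus tag or RNA symbol and 5267 have a gene symbol. The array's build is unknown, so no coordinates are printed. Sequences, including promoters, were not analysed here. A few genes are not reported here.

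With 1 array no test was made, and features were counted past 2-fold. Members of 76 lists were summarised by counts and medians (Python 3.11.15, pandas 2.3.3), and 4 list symbols found no match. A shift planted in the histone list of simulated data was read back from those same values. Its outcome was fixed in advance, so it does not test the procedure. Named genes were the 25 highest and lowest features, all members of lists of up to 15 genes, the 3 highest and lowest of longer lists, and the 15 extremes among features within 2-fold at 30 min. A few others were named after their values were seen, among them ARO9, HMS2, FET4 and single list members. Lists, pairs and the rule were chosen with earlier results of these data known. Alternatives changed the threshold, centring, scale, log base and features counted.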

Additional observations from a re-analysis of the deposited data

Results flagged for a closer look

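Some list members and named features had opposite signs at the 2 times, at least 1.5-fold from 0 at both. With 1 array per time the difference was not tested. Of 1423 list members and named features looked at, 12 were of this kind. At 60 min, 5 were positive. OLE1 had 1.46 at 60 min and -1.0 at 30 min, CLB6 had 0.78 and -2.84, RNR1 had 0.73 and -3.12, CLN1 had 0.62 and -1.11, and the glucanase gene EXG1 had 0.61 and -1.86. The other 7 were negative at 60 min. YDL159W-A had -2.29 at 60 min and 0.87 at 30 min, CAR2 had -1.05 and 0.70, MET13 had -0.96 and 0.71, the haem oxygenase gene HMX1 had -0.78 and 1.25, GSY1 had -0.77 and 2.75, EMI2 had -0.72 and 2.56, and the permease gene DIP5 had -0.67 and 0.75. Over all features, 7 passed 2-fold in opposite directions at the 2 times, and none of them has a gene symbol.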

How the results depend on the processing

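The counts depend on the scale and threshold, which the single array cannot settle. Of the lists, 9 had a median at least 2-fold from 0 on the deposited scale. At 1.5-fold, 984 features were higher and 945 lower, and 26 list medians passed. At 4-fold these numbers were 105, 14 and 2. Scaled to the SD of the 30 min array they were 1078, 1093 and 28, and scaled to its interquartile range 1155, 1187 and 28. Read as natural logs they were 806, 728 and 18. Keeping features at 0 changed none of these counts, and centring on the mean (429 higher and 336 lower), centring on the median of genes with a symbol (470 and 279) or counting only features in the reference table (370 and 245) kept each within 1.5 times, with 9 list medians past 2-fold each time. Of 633 genes that the naming rule covers, 127 changed their side of the threshold under SD scaling, 136 under interquartile scaling, 84 as natural logs, 110 at 1.5-fold and 160 at 4-fold. Of the 76 list medians, 19, 19, 9, 17 and 7 did so under these 5 alternatives in the same order. Promoter motifs could not be examined because no sequences were used here. No paired analysis was possible because each time has 1 array and no test was made. How far dim features limit the values was not examined, since no intensities were used here.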
